A study of Mus musculus with 12 samples.

Results

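Transcripts of natural killer (NK) cells and cytotoxic T cells were followed in libraries made from splenic B cells. The genes were Gzma, Gzmb, Prf1, Nkg7, Il2rb, Klrk1, Klrd1, Ncr1 and Ccl5, taken as the rows of the deposited count table that carry these symbols, 9 of 23282 rows. Each symbol stood on 1 row, and 6 of the 9 genes passed the filter on low counts, as 11857 genes did in all; Gzmb, Prf1 and Ncr1 did not. After CpG-ODN injection, Gzma and Il2rb were higher with and without the drug IM156, and Nkg7 passed the test beside IM156 and in the average over both arms. Klrk1 passed edgeR's test in that average alone, a call lost with some single libraries left out. No call beside IM156 held without IM156 replicate 3 or without ODN plus IM156 replicate 1. Ncr1 was counted in all 6 libraries with ODN and in none of the 6 without it. Ccl5, with the most counts of the 9, was not called in any comparison. Counts of the other genes were low, from 0 to 105 per library.

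All mice were C57BL/6, wild type and 7 weeks old per the sample labels; the series' design text calls them lupus-prone and names no allele. There were 4 groups of 3 libraries. The ODN plus IM156 group received both agents, the ODN group CpG-ODN 1826 of class B alone (50 µg into the peritoneum, days 1 and 3), the IM156 group the drug alone (30 mg/kg by the same route, days 0 and 2), and the control group neither, with no vehicle stated. Spleens of all 4 groups were taken on day 4. RNA (3 µg per library) was read from transcript 3' ends with the QuantSeq kit of Lexogen. CpG-ODN is a synthetic DNA with unmethylated CpG sites that binds Toll-like receptor 9, and IM156 is a drug that the series describes as blocking oxidative phosphorylation. How the B cells were purified is not given in the sources used here. The labels do not say whether replicates came from separate animals, so p-values measure only the spread between these libraries, which may be technical at least in part. ODN replicate 3 had 1 count of Xist, against 9701 and 10759 in ODN replicates 1 and 2. These 3 libraries were thus not repeats of the same RNA sample. No label explains the difference, and its cause was not tested.

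As background, NK cells and cytotoxic T cells kill by releasing granules in which perforin forms pores and granzymes act as proteases inside the target cell. NK cells carry activating and inhibitory receptors of the killer-cell lectin-like family and depend on interleukin-15, which signals through the beta chain shared with the interleukin-2 receptor. Most of these genes are at low levels in resting B cells, so their reads in a B cell library may come from B cells or from other cells that remain in it. In these bulk samples, fewer cells of a type and less RNA per cell cannot be told apart.

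The promoters of Gzma, Nkg7, Klrk1 and Ncr1 are shown because these genes were called, or counted in every library with ODN and in none without it. RefSeq windows on GRCm38.p6, from 250 bases before to 50 bases after the start site, were found for 6 of the 9 genes. The windows of Gzma (chr13:113100932-113101231, minus strand), Nkg7 (chr7:43436888-43437187, plus strand), Klrk1 (chr6:129623815-129624114, minus strand) and Ncr1 (chr7:4337474-4337773, plus strand) are printed 5′ to 3′ along each gene, with matches to 3 motifs searched on both strands in capitals.
Gzma: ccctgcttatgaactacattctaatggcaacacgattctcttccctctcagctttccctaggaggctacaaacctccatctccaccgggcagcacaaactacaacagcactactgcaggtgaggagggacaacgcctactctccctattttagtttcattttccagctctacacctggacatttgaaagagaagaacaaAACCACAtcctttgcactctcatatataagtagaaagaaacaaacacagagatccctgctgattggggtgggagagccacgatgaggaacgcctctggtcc
Nkg7: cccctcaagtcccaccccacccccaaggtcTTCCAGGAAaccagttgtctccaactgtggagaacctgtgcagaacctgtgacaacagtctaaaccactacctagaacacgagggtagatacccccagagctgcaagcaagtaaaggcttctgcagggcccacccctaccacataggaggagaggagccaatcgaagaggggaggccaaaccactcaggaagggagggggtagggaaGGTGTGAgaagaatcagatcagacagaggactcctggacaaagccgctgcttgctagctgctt
Klrk1: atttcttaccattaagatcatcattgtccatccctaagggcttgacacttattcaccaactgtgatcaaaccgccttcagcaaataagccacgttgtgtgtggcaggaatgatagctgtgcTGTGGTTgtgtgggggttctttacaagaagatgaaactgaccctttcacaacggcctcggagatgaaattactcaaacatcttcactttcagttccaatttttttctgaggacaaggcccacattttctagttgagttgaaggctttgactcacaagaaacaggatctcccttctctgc
Ncr1: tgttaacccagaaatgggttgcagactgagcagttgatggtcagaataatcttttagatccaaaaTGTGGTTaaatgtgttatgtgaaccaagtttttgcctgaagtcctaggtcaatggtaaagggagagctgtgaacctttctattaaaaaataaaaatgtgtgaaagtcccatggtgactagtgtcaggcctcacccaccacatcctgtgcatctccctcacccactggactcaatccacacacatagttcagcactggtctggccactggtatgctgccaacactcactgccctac
The searched letters were TGTGGTT for RUNX factors, GGTGTGA for T-box factors and TTCNNNGAA for STAT factors. A RUNX match stood in 4 of the 6 windows, against 5.27% of all 32851 windows: in Gzma at position -51 on the opposite strand, in Klrk1 at -129, in Ncr1 at -185 and in Gzmb at -34. The Nkg7 window held a T-box match at -13, found in 3.98% of all windows, and a STAT match at -220, found in 8.3%. Positions count from the RefSeq start site of each window. For Nkg7 that site lies inside the gene span given below, and for Gzmb it lies upstream of the span. The Gzmb window, not printed, held a STAT match at 37, past its start site, and the Prf1 window held none of the 3. Matches describe letters in these windows and were not tied to binding.

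Total counts per library lay between 9650775 and 11532525. B cell markers summed to 13260 to 15030 CPM (read counts scaled to library size) in every library. Libraries of the ODN group stood apart in 3 ways. ODN replicate 2 had 1.46% of its counts in the ribosomal RNA row Rn45s, against 4.78% to 9.63% in the other 11 libraries. ODN replicate 3 had 1 count of Xist, against 9701 to 13011 counts in the other 11, and ODN replicate 1 had neutrophil markers at 92.8 CPM, against 25.2 and 27.8 CPM in ODN replicates 2 and 3. Log2 fold changes of ODN against control are therefore also given without each of these libraries. Differences were tested with edgeR's quasi-likelihood test over all 12 libraries and called where the p adjusted over the 11857 tested genes (Benjamini-Hochberg) was below 0.05. Counting intervals and limits for a count of 0 cover counting error only. Levels are not compared between genes.

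Gzma (GRCm38 chr13:113093825-113100981, minus strand) encodes granzyme A, a protease of cytotoxic granules. It had 31, 28 and 19 counts in ODN plus IM156 libraries, 37, 105 and 90 in ODN libraries, 8, 1 and 1 in IM156 libraries, and 4, 0 and 0 in control libraries. Every library with ODN was above every library without it, and ODN libraries were all above ODN plus IM156 libraries. The level was 2.52 ± 0.727 CPM with ODN plus IM156, 7.16 ± 2.87 CPM with ODN, 0.326 ± 0.409 CPM with IM156 and 0.133 ± 0.230 CPM in controls (mean ± SD, n = 3 libraries each). In edgeR's quasi-likelihood test Gzma rose in ODN against control by 5.69 on the log2 scale (SE 0.788, adjusted p = 0.000144). The counts behind it, 232 against 4, gave a ratio of levels of 57.5 with a 95% counting interval of 22.2 to 213. It rose in ODN plus IM156 against IM156 by 2.96 (SE 0.720, adjusted p = 0.0331), from 78 against 10 counts, a ratio of 8.08 with a counting interval of 4.17 to 17.5. IM156 replicate 1 held 8 of those 10 counts, and without it the log2 fold change was 4.65 (adjusted p = 0.0124). The call beside IM156 was lost without IM156 replicate 2 or 3 (adjusted p = 0.157 and 0.179) and without ODN plus IM156 replicate 1, 2 or 3 (0.0939, 0.103 and 0.0560). Without ODN replicate 1, 2 or 3 the log2 fold change of ODN against control was 5.98, 5.48 and 5.53, each called. Without control replicate 1, which held all 4 control counts, it was 9.26, a fitted value against controls at 0 that is no bound, and without control replicate 2 or 3 it was 5.11 and 5.15, all called.

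The other granule genes were counted less often. Gzmb (chr14:56258838-56262260, minus strand), encoding granzyme B, had 0, 4 and 2 counts in ODN plus IM156 libraries, 3, 3 and 0 in ODN libraries, and 0 in each IM156 and each control library. A count of 0 over the 3 control libraries allows up to 0.0955 CPM, with 3 counts per group as the limit. Counts stood in 4 of the 6 libraries with ODN, and the groups overlapped at 0. The level was 0.200 ± 0.212 CPM with ODN plus IM156 and 0.190 ± 0.167 CPM with ODN (SD, n = 3 libraries each). Over both arms the exact permutation test within the IM156 arms gave p = 0.08 for Gzmb (two-sided, unadjusted). The difference in mean log2(CPM + 1) was 0.24. Prf1 (chr10:61297833-61304680, plus strand), encoding perforin, had 0, 0 and 4 counts in ODN plus IM156 libraries, 3, 3 and 6 in ODN libraries, 3, 8 and 1 in IM156 libraries, and 2, 2 and 2 in control libraries. ODN libraries were above controls, while IM156 libraries reached the highest single count, and the same exact test gave p = 0.87 (difference of -0.04). The arms went opposite ways for Prf1, with 12 against 6 counts in ODN against control and 4 against 12 beside IM156. Their average can therefore hide a difference within an arm. The 95% counting intervals of the ratios of levels were 0.688 to 6.44 and 0.0811 to 1.14, each including equal levels.

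Nkg7 (chr7:43437073-43438249, plus strand) encodes a membrane protein of cytotoxic granules. It had 34, 11 and 12 counts in ODN plus IM156 libraries, 13, 38 and 18 in ODN libraries, 0, 3 and 2 in IM156 libraries, and 4, 4 and 8 in control libraries. The groups with ODN did not overlap those without it, and 1 library in each ODN group was well above its other 2. Levels were 1.81 ± 1.21, 2.11 ± 1.01, 0.150 ± 0.141 and 0.512 ± 0.228 CPM in the same order of groups (SD, n = 3 libraries each). Nkg7 rose in ODN plus IM156 against IM156 by 3.47 on the log2 scale (SE 0.789, adjusted p = 0.0225, edgeR). In ODN against control its log2 fold change was 2.04 (SE 0.655, adjusted p = 0.0528), past the threshold with DESeq2 (adjusted p = 0.0334) and not with edgeR. Without ODN replicate 2, which held 38 of the 69 ODN counts, that value was 1.57 with an adjusted p of 0.233. Without ODN replicate 1 it was 2.27 (adjusted p = 0.0524), and it was called by edgeR without ODN replicate 3 (2.16, adjusted p = 0.0489) or IM156 replicate 1 (adjusted p = 0.0494). The call beside IM156 was lost without any 1 of the 3 IM156 libraries or ODN plus IM156 replicate 1, with an adjusted p of up to 0.139.

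Il2rb (chr15:78479256-78495271, minus strand) encodes the beta chain of the interleukin-2 and interleukin-15 receptors. It had 24, 27 and 35 counts in ODN plus IM156 libraries, 46, 42 and 49 in ODN libraries, 6, 13 and 5 in IM156 libraries, and 13, 9 and 13 in control libraries. All ODN libraries were above all ODN plus IM156 libraries, which were above the 6 libraries without ODN. Levels were 2.74 ± 0.430, 4.36 ± 0.656, 0.747 ± 0.415 and 1.12 ± 0.265 CPM in that order of groups (SD, n = 3 libraries each). Il2rb rose by 1.95 on the log2 scale in ODN against control (SE 0.422, adjusted p = 0.00481) and by 1.87 in ODN plus IM156 against IM156 (SE 0.450, adjusted p = 0.0316), both in edgeR's test. Without ODN replicate 1, 2 or 3, the log2 fold change of ODN against control was 1.88, 2.07 and 1.88, each called. The call beside IM156 was lost without IM156 replicate 1 or 3 or any 1 of the 3 ODN plus IM156 libraries, with an adjusted p of up to 0.177.

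**Figure D1:**
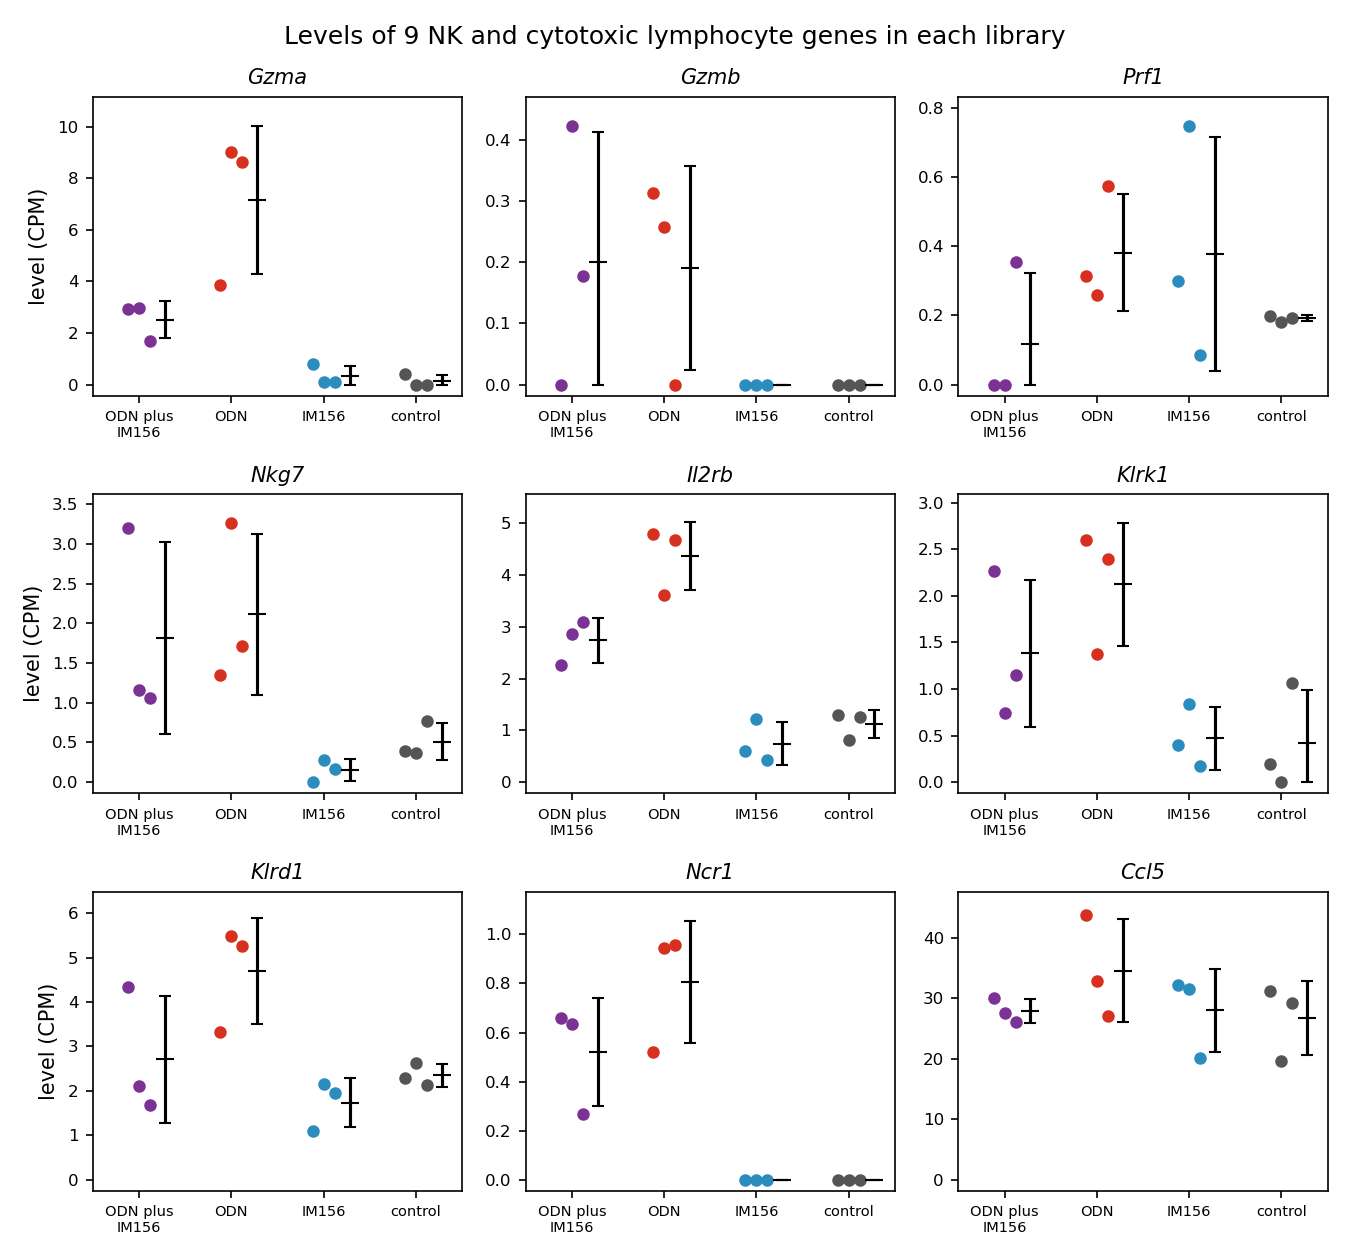
Level of each of the 9 genes (y axis, CPM, a separate scale per panel) in the 3 libraries of ODN plus IM156, ODN, IM156 and control, with the mean and SD of each group beside its points; lower bars stop at 0. Gzma, Nkg7, Il2rb and Ncr1 lay higher in all 6 libraries with ODN than in the 6 without, while Ccl5 overlapped between all groups.

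The 3 receptors of NK cells differed in how far their groups separated. Ncr1 (chr7:4337724-4345164, plus strand) encodes NKp46, an activating receptor that marks NK cells and related innate lymphoid cells. It had 7, 6 and 3 counts in ODN plus IM156 libraries, 5, 11 and 10 in ODN libraries, and 0 in each of the 6 libraries without ODN. No library with ODN was at 0, and the level was 0.520 ± 0.221 CPM with ODN plus IM156 and 0.807 ± 0.248 CPM with ODN (SD, n = 3 libraries each). Set against the limit of 3 counts over the control libraries, the Ncr1 level with ODN was 8.59 times that limit. With ODN plus IM156 it was 5.52 times the same limit over the IM156 libraries. Counting error of the libraries with ODN is not in these ratios, so they are no lower bounds. Ncr1 was below the filter on low counts. The exact permutation test within the IM156 arms gave p = 0.005 (two-sided, unadjusted, difference of 0.72 in mean log2(CPM + 1)). That is the smallest p its 400 arrangements can give.

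Klrk1 (chr6:129610323-129623864, minus strand) encodes NKG2D, an activating receptor. It had 24, 7 and 13 counts in ODN plus IM156 libraries, 25, 16 and 25 in ODN libraries, 4, 9 and 2 in IM156 libraries, and 2, 0 and 11 in control libraries. ODN libraries were above controls, whereas ODN plus IM156 replicate 2, with 7 counts, was below IM156 replicate 2, with 9. Levels were 1.39 ± 0.789, 2.12 ± 0.658, 0.470 ± 0.341 and 0.421 ± 0.566 CPM in that order of groups (SD, n = 3 libraries each). Its log2 fold change was 2.31 in ODN against control (SE 0.785, adjusted p = 0.0678) and 1.56 in ODN plus IM156 against IM156 (SE 0.789, adjusted p = 0.391), neither called by edgeR. DESeq2 called the value in ODN against control (adjusted p = 0.0341), and so did edgeR without control replicate 3, which held 11 of the 13 control counts (log2 fold change 4.31, adjusted p = 0.0147). Without control replicate 1 or 2 the value was 1.99 and 1.72 (adjusted p = 0.179 and 0.199). Without ODN replicate 1, 2 or 3 it was 2.14, 2.55 and 2.20, none called (adjusted p = 0.151, 0.0799 and 0.0963).

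Klrd1 (chr6:129591782-129598775, plus strand) encodes CD94, a chain that pairs with NKG2A, and ends 11547 bases from Klrk1. It had 46, 20 and 19 counts in ODN plus IM156 libraries, 32, 64 and 55 in ODN libraries, 11, 23 and 23 in IM156 libraries, and 23, 29 and 22 in control libraries. ODN libraries were above controls, and ODN plus IM156 libraries overlapped IM156 libraries. Levels were 2.71 ± 1.43 CPM with ODN plus IM156, 4.70 ± 1.19 CPM with ODN, 1.74 ± 0.562 CPM with IM156 and 2.35 ± 0.257 CPM in controls (SD, n = 3 libraries each), so that Klrd1 was counted in every library without ODN. The log2 fold change was 1.00 in ODN against control (SE 0.395, adjusted p = 0.116) and 0.63 in ODN plus IM156 against IM156 (SE 0.417, adjusted p = 0.539), neither called by edgeR. Klrd1 had 1.19, 0.87 and 0.91 in ODN against control without ODN replicate 1, 2 or 3, none called.

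Ccl5 (chr11:83525778-83530518, minus strand) encodes a chemokine of activated T cells and NK cells. It had 318, 261 and 294 counts in ODN plus IM156 libraries, 420, 383 and 282 in ODN libraries, 323, 338 and 236 in IM156 libraries, and 314, 217 and 301 in control libraries. All 4 groups overlapped, at 27.9 ± 1.99, 34.5 ± 8.50, 27.98 ± 6.81 and 26.7 ± 6.14 CPM in that order (SD, n = 3 libraries each). Its log2 fold change was 0.37 in ODN against control (SE 0.196, adjusted p = 0.248) and 0.00 in ODN plus IM156 against IM156 (SE 0.197, adjusted p = 0.997), with edgeR. Leaving out ODN replicate 1, 2 or 3 gave 0.17, 0.41 and 0.51 in ODN against control, none called. Ccl5 made up 70.2 ± 4.01% of the summed CPM of the 9 genes with ODN plus IM156, 60.7 ± 9.99% with ODN, 88.0 ± 2.76% with IM156 and 84.7 ± 1.84% in controls (SD, n = 3 libraries each).

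Across the 6 genes that passed the filter on low counts, 2 rose in ODN against control (Gzma and Il2rb), and none fell, where 7.34% of all 11857 tested genes rose. In ODN plus IM156 against IM156, 3 rose (Gzma, Nkg7 and Il2rb), against 1.74% of all tested genes. The filter needs about 10 counts in at least 3 libraries. Gzma and Nkg7 reached 10 counts in all 6 libraries with ODN and in 0 without it, and Klrk1 in 5 and 1, so these genes were tested through the groups where they were high. The share of tested members called is therefore partly set by the filter, and the 3 genes below it are not in these counts. Of all 9 genes, 7 had every ODN library above every control library (all but Gzmb and Ccl5), where 13.2% of all tested genes did. Every ODN plus IM156 library was above every IM156 library for 4 of the 9, Gzma, Nkg7, Il2rb and Ncr1, where 12.8% of all tested genes separated so. Prf1 and Ncr1 among the 7, and Ncr1 among the 4, were below the filter. Both shares are over tested genes only, so they hold no such low-count rows. The 3 calls beside IM156 rest on few libraries: no gene was called without IM156 replicate 3 or without ODN plus IM156 replicate 1, and 1 was called without any of the other 4 libraries of those groups.

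When the effect of ODN was averaged over both arms, 6 libraries against 6, 4 of the 6 genes rose, where 8.09% of all tested genes did. Gzma, Nkg7 and Klrk1 passed the filter through libraries with ODN, so this share too is partly set by the filter. The log2 changes were 4.32 for Gzma (SE 0.537, adjusted p = 2.45e-05), 2.75 for Nkg7 (SE 0.514, adjusted p = 0.00114), 1.91 for Il2rb (SE 0.309, adjusted p = 0.000317) and 1.93 for Klrk1 (SE 0.557, adjusted p = 0.0274) in edgeR. The average uses the same libraries as the comparisons within the arms and is no separate evidence. Klrd1 had 0.82 (SE 0.287, adjusted p = 0.0700) and Ccl5 0.18 (SE 0.139, adjusted p = 0.438). The call of Klrk1 was lost when any of 6 of the 12 libraries was left out, with an adjusted p of up to 0.0928: control replicates 1 and 2, IM156 replicates 1 and 3, and ODN plus IM156 replicates 1 and 3. Gzma, Nkg7, Il2rb and Ncr1 were higher in all 6 libraries with ODN than in the 6 without, where 3.49% of all tested genes were. Ncr1 was below the filter and is not among the tested genes of that share, and Gzma and Nkg7 passed the filter through the libraries with ODN.

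**Figure D2:**
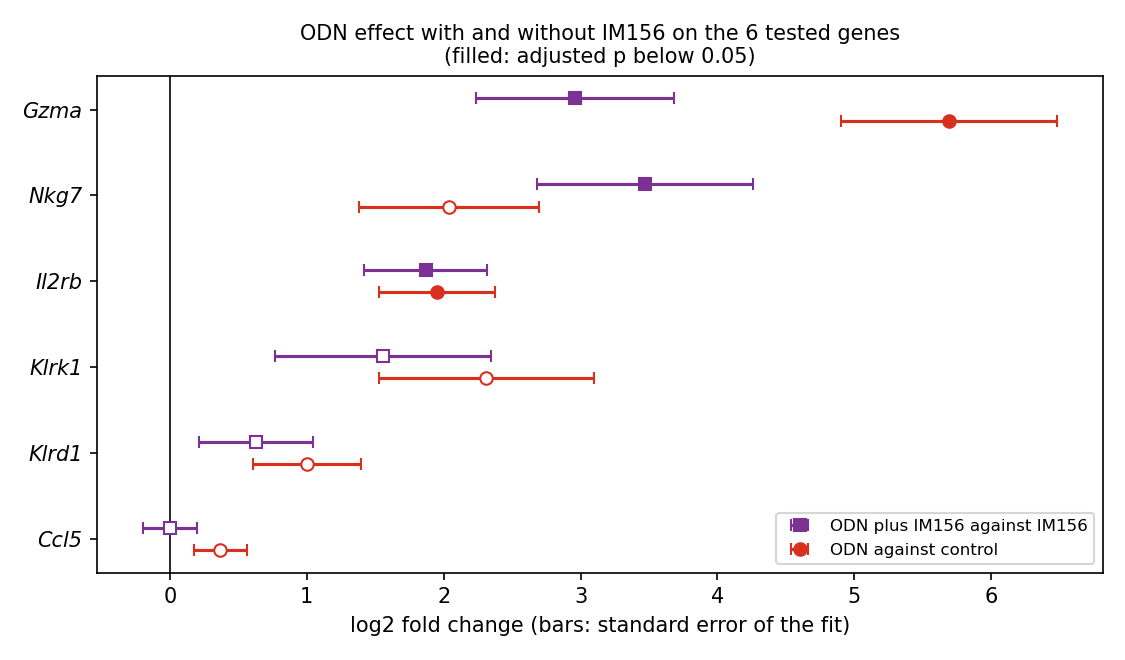
Log2 fold changes (x axis, bars give the standard error) of the 6 tested genes in ODN plus IM156 against IM156 (squares) and ODN against control (circles), filled where the adjusted p was below 0.05. Gzma had 2.96 with IM156 and 5.69 without it, Nkg7 3.47 and 2.04, Il2rb 1.87 and 1.95, and Ccl5 lay near 0 in both.

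Whether IM156 altered these transcripts was read from the remaining comparisons. In ODN plus IM156 against ODN, none of the 6 genes was called by edgeR, where 0.0675% of all tested genes were. Of the 6, 1 had an unadjusted p below 0.05, as did 16.2% of all tested genes, and DESeq2 gave an adjusted p for Ccl5 alone, which it did not call. Gzma had a log2 fold change of -1.51 (SE 0.536, unadjusted p = 0.0109, adjusted p = 0.162), and its 3 ODN plus IM156 libraries, at 19 to 31 counts, were all below the 3 ODN libraries, at 37 to 105. Such a separation downwards was seen in 10% of all tested genes. Il2rb had -0.67 (SE 0.388, adjusted p = 0.420), also with no overlap, and Klrd1 -0.79 (SE 0.390, adjusted p = 0.323), with overlap. All 6 values were below 0, where the median over all tested genes was -0.01. Gzma was called in this comparison by edgeR (adjusted p = 0.0114) when all 17399 genes with a count were tested. That setting called 664 genes in all, against 8 with the filter.

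In IM156 against control none of the 6 genes was called by edgeR or DESeq2, and none had an unadjusted p below 0.05. Of all tested genes edgeR called 0.0%, with 3.7% at an unadjusted p below 0.05, and DESeq2 called 2 genes. Nkg7 had a log2 fold change of -1.66 (SE 0.903, unadjusted p = 0.0816), its IM156 libraries at 0 to 3 counts all below control libraries at 4 to 8, a separation seen in 5.25% of all tested genes. The interaction, the ODN effect with IM156 minus that without it, was called by edgeR for none of the 6 genes and for 0.0% of all tested genes. An unadjusted p below 0.05 was found for 1 of the 6 and for 12.3% of all tested genes, and DESeq2 called 151 genes, giving an adjusted p for Ccl5 alone of the 6. For Gzma it was -2.72 (SE 1.24, unadjusted p = 0.0398, adjusted p = 0.376), and for Nkg7 1.43 (SE 1.06, adjusted p = 0.640). The Gzma value rested on few counts without ODN. It was -1.04 without IM156 replicate 1 and -6.29 without control replicate 1, and was not called with any library left out. The ODN effects with and without IM156 were thus not shown to differ for any of these genes.

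Leaving Ccl5, which was not called, out of the sum was chosen after the data were seen. The sum holds genes whose separation is given above, so its order is no separate evidence. The summed level of the 8 genes other than Ccl5 was higher in every library with ODN than in any without it. It was 15.7, 10.9 and 9.48 CPM in ODN plus IM156 libraries, 17.1, 24.2 and 24.2 CPM in ODN libraries, 3.19, 5.33 and 2.90 CPM in IM156 libraries, and 4.77, 3.99 and 5.42 CPM in control libraries. The ODN plus IM156 and ODN groups did not overlap each other or the groups without ODN. The means were 12.01 ± 3.24, 21.8 ± 4.12, 3.81 ± 1.33 and 4.73 ± 0.716 CPM in the same order (SD, n = 3 libraries each). ODN replicate 1, the library with the most neutrophil marker reads, was the lowest of its group in this sum and the highest in Ccl5, at 43.7 CPM against 32.9 and 27.0 CPM in ODN replicates 2 and 3.

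**Figure D3:**
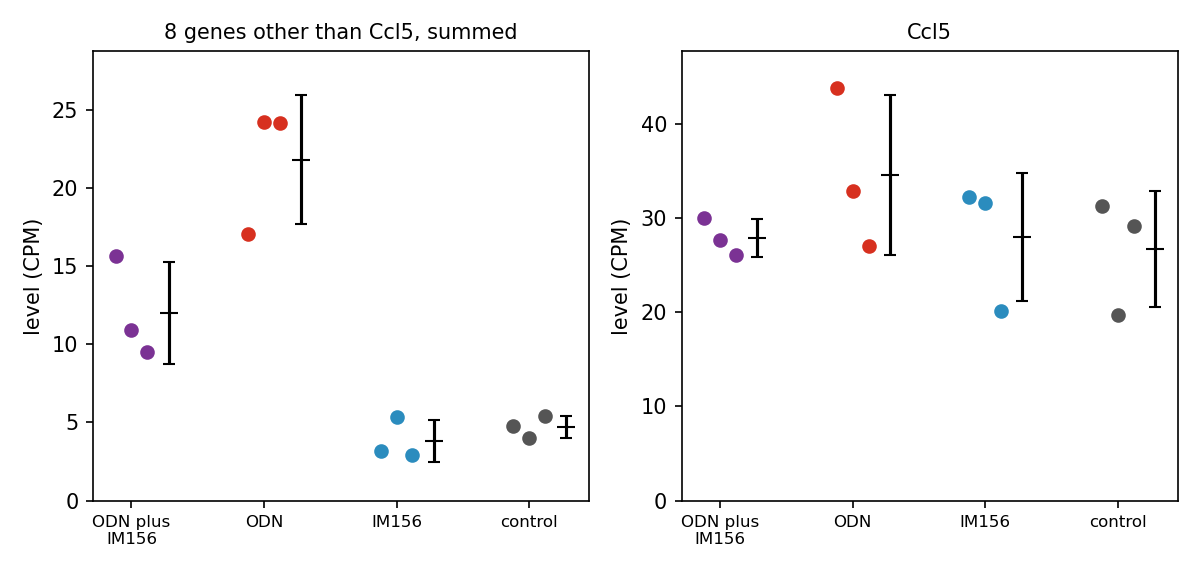
Summed level of the 8 genes other than Ccl5 (left) and level of Ccl5 (right) in each library (y axes, CPM), with group mean and SD. The left sums lay between 9.48 and 24.2 CPM with ODN and between 2.90 and 5.42 CPM without, and Ccl5 overlapped between all groups.

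Among 39 other receptors and adaptors of NK cells, 38 were in the table and 15 were tested. Of these, 5 rose in ODN against control, where 7.34% of all tested genes did. In ODN plus IM156 against IM156, 3 rose, where 1.74% of all tested genes did, and none fell in either. Their median log2 fold change was 0.92 without IM156 and 1.00 with it, over tested genes that, when low, also passed the filter through the group where they were high. Klrc1, the inhibitory receptor chain NKG2A that pairs with CD94, had 17, 3 and 10 counts in ODN plus IM156 libraries, 6, 19 and 19 in ODN libraries, 0, 4 and 0 in IM156 libraries, and 2, 0 and 1 in control libraries. It rose by 3.68 in ODN against control (SE 1.02, adjusted p = 0.0253, edgeR). Cd7, a surface protein of NK and T cells, rose by 1.73 in ODN against control (adjusted p = 0.00593) and by 1.44 beside IM156 (adjusted p = 0.0487). The other genes that rose were Fcer1g, an adaptor of Fc receptors, and the Fc receptors Fcgr4 and Fcgr3 (Fcgr3 in ODN against control). Myeloid cells express all of these, and which cells carried them was not tested. Without ODN replicate 2 the count in ODN against control was 2 in place of 5. Left out singly, the 12 libraries gave 2 to 6 there and 1 to 4 beside IM156.

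Of the NK receptors below the filter, Klrb1c, which encodes the NK1.1 antigen of C57BL/6 mice, had 27 counts summed over ODN plus IM156 libraries, 21 over ODN, 18 over IM156 and 15 over control libraries. It was thus present in all groups, unlike Ncr1, and its 3 ODN libraries, at 0, 10 and 11 counts, spanned the range of the others. Klre1 and Klra7, other receptors of the list, were chosen after their values were seen. Klre1 had 26 counts with ODN plus IM156 and 20 with ODN, against 0 with IM156 and 0 in controls. Klra7 had 13 and 15 counts with ODN plus IM156 and with ODN, against 2 with IM156 and 0 in controls. Klra6 and Klra10 were at 0 in every library.

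The remaining genes of granules, cytokines, receptors and regulators mostly did not pass the test. Of 22 further granule genes, 12 were tested and none was called by edgeR in either arm (1 in each at an unadjusted p below 0.05; 1 called by DESeq2 in ODN against control, 0 beside IM156), with a median log2 fold change of 0.04 in ODN against control and 0.17 beside IM156; Gzmk, Gzmd, Gzme, Gzmf, Gzmg and Gzmn were at 0 in every library. Of all tested genes, 7.34% rose in ODN against control and 1.74% beside IM156. Of 9 effector cytokines and chemokines, 7 were tested and 1 rose in each arm. This was Ccl4, a chemokine, with 10, 18 and 16 counts in ODN plus IM156 libraries, 38, 15 and 16 in ODN libraries, 1, 0 and 1 in IM156 libraries, and 3, 1 and 5 in control libraries. Ccl4 rose by 2.91 in ODN against control (SE 0.697, adjusted p = 0.0101) and by 4.28 beside IM156 (SE 0.909, adjusted p = 0.0143). Only libraries with ODN reached 10 counts of Ccl4, so it was tested through the groups where it was high. No gene of this list rose in ODN against control without ODN replicate 1, which held 38 of the 69 ODN counts of Ccl4. Ifng, encoding interferon gamma, had 23 counts summed over ODN plus IM156 libraries, 6 over ODN, 3 over IM156 and 5 over control libraries, and was not tested.

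Of 14 genes of the interleukin-2 and interleukin-15 axis, 11 were tested; Jak3, the kinase bound to the common gamma chain, rose in both arms, and Il12rb1, a chain of the interleukin-12 receptor, rose beside IM156. Jak3 rose by 0.52 in ODN against control (adjusted p = 0.00508) and by 0.58 beside IM156 (adjusted p = 0.00674). For this list and the next, the shares of all tested genes that rose were 7.34% in ODN against control and 1.74% beside IM156. Of 12 transcription factors of cytotoxic lineages, 11 were in the table and 7 were tested. Id2 and Tbx21, which encodes T-bet, rose in ODN against control, Ets1 fell by 0.33, and none was called by edgeR beside IM156 (2 at an unadjusted p below 0.05 and 2 called by DESeq2). Tbx21 had 69, 70 and 72 counts in ODN plus IM156 libraries, 170, 70 and 91 in ODN libraries, 32, 32 and 31 in IM156 libraries, and 41, 21 and 49 in control libraries. Its log2 fold change was 1.59 in ODN against control (SE 0.359, adjusted p = 0.00641) and 1.20 beside IM156 (SE 0.370, adjusted p = 0.0990). When ODN replicate 1, with its 170 counts of Tbx21, was left out, 1 gene of this list rose in ODN against control. Activated B cells can also express Tbx21, so it does not mark NK cells alone. Eomes, a factor of mature NK cells, had 11 counts with ODN plus IM156, 21 with ODN, 4 with IM156 and 2 in controls. Neither edgeR nor DESeq2 called a gene of these 5 lists in ODN plus IM156 against ODN, IM156 against control or the interaction. Of the 52 tested, DESeq2 gave no adjusted p for 24 in the first and 26 in the last, which it could not call. In that order, 16.2%, 3.7% and 12.3% of all tested genes had an unadjusted p below 0.05 with edgeR. Of 15 NK receptors and adaptors 0, 1 and 0 did, and of 12 granule genes 2, 0 and 1. The interleukin axis had 4, 0 and 3 of 11. Transcription factors had 1, 1 and 2 of 7, and cytokines and chemokines 0 of 7 in each.

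Markers of other cells moved with ODN beside these genes, and their part in the results was not tested. Of 25 T cell markers, 21 were in the table and 11 tested. EdgeR called none in ODN against control (4 at an unadjusted p below 0.05, 1 called by DESeq2), and Il7r rose beside IM156, where 1.74% of all tested genes did. Their summed level was 66.2 to 78.4 CPM with ODN plus IM156, 67.7 to 73.2 CPM with ODN, 58.5 to 62.6 CPM with IM156 and 52.4 to 63.8 CPM in controls, with no overlap between libraries with and without ODN. Cd3e, a defining chain of the T cell receptor complex, had 6, 3, 2 and 5 counts summed over the 4 groups in that order, near the limit of detection in each. Cd8a had 136, 66 and 132 counts in ODN plus IM156 libraries, 20, 88 and 92 in ODN libraries, 56, 46 and 21 in IM156 libraries, and 31, 29 and 41 in control libraries. Its log2 fold change was 0.94 in ODN against control (adjusted p = 0.185) and 1.45 beside IM156 (adjusted p = 0.0773), neither called, and Cd8a rose in the average over both arms by 1.19 (SE 0.303, adjusted p = 0.0128, edgeR). Thy1, a surface protein of T cells, also rose in that average, by 1.99 (adjusted p = 0.0256, edgeR). These were the only 2 of the 11 tested T cell markers that rose in it, where 8.09% of all tested genes did. The median log2 fold change of the 11 was 0.13, and which cells carried Cd8a was not tested.

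Of all tested genes, 7.34% rose in ODN against control and 1.74% beside IM156, the shares to set beside the rising counts that follow. Platelet markers were also higher with ODN. Of 12, 11 were tested; 8 rose in ODN against control and 6 beside IM156, and their sum was 202 to 267 CPM with ODN plus IM156, 212 to 336 CPM with ODN, 109 to 112 CPM with IM156 and 75.4 to 110 CPM in controls. Neutrophil markers summed to 20.2 to 26.8, 25.2 to 92.8, 2.99 to 8.02 and 7.55 to 10.04 CPM in that order, with 2 of 4 tested genes rising in each arm. Monocyte and macrophage markers, of which 14 were tested, summed to 115 to 163, 77.6 to 149, 62.1 to 107 and 65.2 to 105 CPM, and 4 rose in ODN against control and none beside IM156 with edgeR (6 at an unadjusted p below 0.05, 1 called by DESeq2). Erythroid markers moved in the other direction, with 5 of 8 tested genes lower in ODN against control, where 3.25% of all tested genes were, and 3 beside IM156, where 0.734% were. Beside IM156 DESeq2 called 0 of the 8, and edgeR called 0 to 5 lower with a library left out. Of 7 tested genes on a list of plasmacytoid dendritic cells, 2 rose in each arm, Ly6c2 and Irf8, and of 10 tested genes of conventional dendritic cells 1 rose in ODN against control and 2 beside IM156, Itgax in both and Xcr1 beside IM156. B cell markers stayed at 13260 to 15030 CPM, with 2 of 16 rising and 1 falling in ODN against control. Without ODN replicate 1, 2 or 3, the number rising in ODN against control was 8, 7 and 7 for platelets, 2 each for neutrophils, and 4, 2 and 6 for monocytes and macrophages. With other libraries left out it reached 0 for monocytes and macrophages. No marker of these lists found in the table was at 0 in every library.

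**Figure D4:**
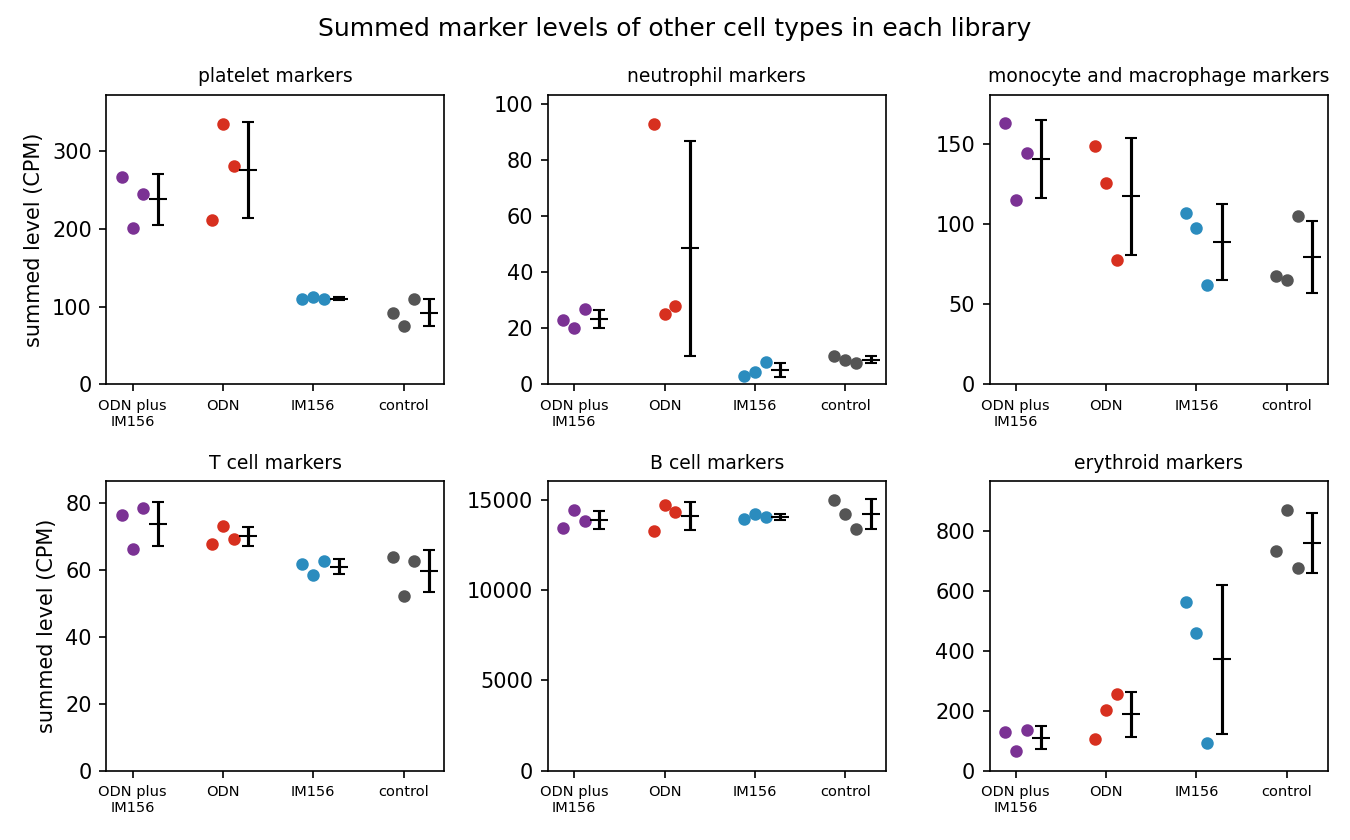
Summed level (y axes, CPM) of marker genes of platelets, neutrophils, monocytes and macrophages, T cells, B cells and erythroid cells in each library, with group mean and SD. Platelet markers lay between 202 and 336 CPM with ODN and between 75.4 and 112 CPM without, while B cell markers overlapped between the groups.

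Over the 12 libraries, which share the ODN difference, levels of the 6 tested genes moved together to unequal degrees. Pearson's r of log2(CPM + 1), given as a description, was 0.87 between Gzma and Il2rb, 0.83 between Nkg7 and Klrd1, 0.83 between Il2rb and Klrk1, and 0.63 between Klrk1 and Klrd1. With Ccl5 it was 0.19 to 0.60. The genes outside the set whose levels were most like its summed level were Pde5a (r = 0.931), Itm2c (0.917) and Phgdh (0.900), a sum set mostly by Ccl5. With Ccl5 left out, a profile chosen after seeing the data, they were Ctla2b (r = 0.952), Myl9 (0.934), Ripk3 (0.926) and Tpm2 (0.926), with the platelet marker Treml1 (0.918) and the NK receptor Klrc1 (0.917) among the first 10. For Gzma alone they were Snrnp25 (r = 0.963), 2410006H16Rik (0.95) and Cfp (0.940), over the same 12 libraries.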

How the data were processed

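Libraries of 3' end RNA-seq from 12 splenic B cell samples, 3 in each of 4 groups, were compared. The authors deposited 1 table of whole-number read counts per gene for all 12 libraries. Per the submitters' processing notes, Bowtie2, bedtools and edgeR were used with build GRCm38/mm10; versions and strand settings are not given in the sources used here. The 28 columns of the authors' own normalized values and comparisons were not used. From the counts, TMM-scaled CPM and edgeR quasi-likelihood tests were computed (R 4.3.3, edgeR 4.0.16, limma 3.58.1; filterByExpr defaults, 1 mean per group, 8 residual degrees of freedom, Benjamini-Hochberg over 11857 genes, threshold 0.05). For genes below the filter, an exact permutation test of log2(CPM + 1) permuted labels within the IM156 arms (400 arrangements, p unadjusted). Total counts of 9650775 to 11532525 per library limit precision for low genes. Alternatives were DESeq2 1.42.0, other scalings, no filter, a robust fit, a replicate block, only the groups compared, and each library left out. The procedure was tested on simulated data.

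The members and lists were chosen with earlier results of these data known. All 9 members were named; of 5 related lists, called genes (at most 8 per comparison by adjusted p) and Klrb1c, Eomes, Tbx21, Ifng, Cd3e and Cd8a were named, and for likeness the 10 genes with the highest Pearson's r qualified. Fcgr3, Ets1 and single genes of the cell type lists were named beyond this rule, after their values were seen.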

Additional observations from a re-analysis of the deposited data

How the results depend on the processing

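Left out singly, the 12 libraries gave 2 to 3 of the 6 tested genes called in ODN against control, 0 to 3 in ODN plus IM156 against IM156, 3 to 5 in the average over both arms, and 0 in the other comparisons. In ODN against control, 5 genes were called with no filter on low counts (Gzma, Nkg7, Il2rb, Klrk1 and Ncr1) and 4 with DESeq2. With no filter, 1 was called in ODN plus IM156 against ODN, Gzma at -1.51. Klrd1 passed in the average with no filter (adjusted p = 0.0480) and with DESeq2 (0.0487). Over the same left-out libraries Gzmb differed by 0.18 to 0.31, with p = 0.02 in the exact permutation test without ODN replicate 3 or ODN plus IM156 replicate 1, and Ncr1 by 0.68 to 0.78. Prf1 ranged from -0.12 to 0.05, turning positive without IM156 replicate 2.

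Values that changed sign were all uncalled. Ccl5 in ODN plus IM156 against IM156 was 0.01 with the replicate block, 0.0 with only the groups compared, and -0.19 to 0.11 with a library left out. With a library left out, values in IM156 against control were -0.47 to 4.78 for Gzma, -0.56 to 2.16 for Klrk1 and -0.11 to 0.26 for Ccl5, Nkg7 in ODN plus IM156 against ODN was -0.93 to 0.23, and the interaction of Il2rb was -0.38 to 0.45. Leaving out a library lowers the number of samples; otherwise the cause was not tested.

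The number of all genes called in ODN against control was 1255, and 598 with only the groups compared (763 to 1874 with a library left out). It was 293 in ODN plus IM156 against IM156, with 652 under no filter, 892 with only the groups compared and 114 to 543 with a library left out. In ODN plus IM156 against ODN it was 8, with 664 under no filter, 373 with DESeq2, 124 with the robust fit, 3 with the replicate block, 1 with only the groups compared and 1 to 794 with a library left out, 794 being without ODN replicate 3. In IM156 against control it was 0, with 53 under no filter, 6 with only the groups compared and 2 with DESeq2. The interaction gave 0, with 276 under no filter, 151 with DESeq2 and 0 to 260 with a library left out, 260 being without ODN replicate 3. Fitting only the groups compared does not apply to the average and the interaction.

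Replicate numbers did not pair the libraries: of 18 same-numbered pairs, correlations of deviations were -0.10 to 0.08, 0 were over 0.1, and 2 of the 12 libraries correlated best with a same-numbered one. With the replicate block, 2, 3 and 4 of the tested genes were called in the 3 ODN comparisons, as without it. Other scalings, leaving out Rn45s and the robust fit changed no call of these genes. Depth limits Gzmb, Prf1 and Ncr1, each at 11 counts or fewer per library.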
